A study of Mus musculus with 8 samples.

Results

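These data describe the genes of the beta-adrenergic and cAMP-PKA pathway in mouse tumours with and without propranolol, a blocker of beta-adrenergic receptors. The pathway was given as a list of 35 gene symbols, from receptors to transcription factors, and rows were taken by symbol from a table of 14133 genes. Of the 35 genes, 33 have a row, 32 passed the filter on low counts and were tested, and Pkia has a row but was not tested. Adrb1 and Adrb3, which encode the beta-1 and beta-3 adrenergic receptors, have no row. Expression is given as CPM, a count scaled to the size of its library, and every gene in the table exceeds 1 CPM in 2 or more of the 8 libraries. Genes under that level, and any other beta-adrenergic receptor gene, are not analysed here.

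The tumours grew under the skin of male BABL/C mice from injected cells of CT26, a mouse colon carcinoma line that the labels give as WT. In the propranolol group, 4 tumours came from mice injected intraperitoneally with propranolol once a day, starting at a tumour volume of 70 to 100 mm3, and in the control group 4 tumours came from mice given PBS. The sources used here give neither the age of the mice nor the dose nor the collection day. A tumour holds the carcinoma cells together with the vessels, stroma and immune cells of the host, and the labels do not say whether each numbered tumour came from its own animal, so a p-value here covers only the spread from tumour to tumour, which may be technical.

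Noradrenaline and adrenaline bind beta-adrenergic receptors, which activate the stimulatory G protein, and this protein switches on adenylyl cyclases that make cyclic AMP (cAMP). cAMP releases the catalytic subunits of protein kinase A (PKA) from their regulatory subunits and also activates the exchange factor Epac. Receptor kinases and beta-arrestins shut the receptor off, phosphodiesterases break cAMP down, and PKA phosphorylates CREB-family factors in the nucleus, which bind the cAMP response element (CRE). The comparison asks whether the transcripts of this machinery, or of genes it is known to induce, differ between propranolol and control tumours.

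Total counts lay between 16570218 and 17201729 in propranolol tumours and between 15483409 and 17511937 in control tumours. Of the 5 carcinoma markers looked for, Epcam has no row, and Krt20, at 76.2 to 157 CPM in propranolol tumours and 44.0 to 145 CPM in control tumours, made up 61.3% to 91.6% of the summed level. Krt18 lay between 5.76 and 20.2 CPM in propranolol tumours and 9.10 and 18.7 CPM in control tumours, and Cdh1 at or below 3.325 CPM in both groups. The markers did not move together: Krt8 was highest in control tumour 4, at 14.0 CPM against 4.495 CPM or less in the other 7, where Krt20 was lowest. The summed CPM of 10 T cell markers was 156, 49.3, 7.76 and 198 in propranolol tumours 1 to 4 and 50.3, 25.6, 16.2 and 43.8 in control tumours 1 to 4. The summed CPM of 6 skeletal muscle markers was 64.5, 1.597, 1.42 and 10.9 in propranolol tumours and 1.59, 2.45, 19.6 and 751 in control tumours, so control tumour 4 stands apart from the rest. In whole tumours, fewer cells of a type and less RNA per cell cannot be told apart.

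No pathway gene differed between propranolol and control tumours past the threshold, and for most of them the gene's own 95% interval lay within 1.5-fold either way. With edgeR's quasi-likelihood test, 0 of the 32 tested genes had an adjusted p under 0.05, and 0% of the 14006 genes tested did. At an unadjusted p under 0.05 the pathway count was also 0, where 1.95% of all genes tested passed. DESeq2 and limma-voom likewise gave 0 pathway genes at either level. The smallest unadjusted p in the pathway was 0.0596, for Crem, and every adjusted p was 0.999 or more. Fitted log2 fold changes, propranolol over control, ran from -0.25 for Prkar1b to 0.52 for Crem with a median of -0.016, and 13 were above 0 and 19 below, beside a median of -0.002 and 49.4% above 0 over all genes tested.

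For 24 of the 32 genes (75%) the 95% interval of the log2 fold change lay within a 1.5-fold difference in either direction, and for 30 (93.8%) within a 2-fold difference. Over all genes tested these shares were 61.3% and 80.1%. The 2 genes whose intervals reach beyond 2-fold are Adcy9, at -1.18 to 1.18, and Crem, at -0.026 to 1.06. Each interval holds for its gene alone and covers only the spread from tumour to tumour, which may be technical. The plot of fold changes shows the intervals by role.

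**Figure D1:**
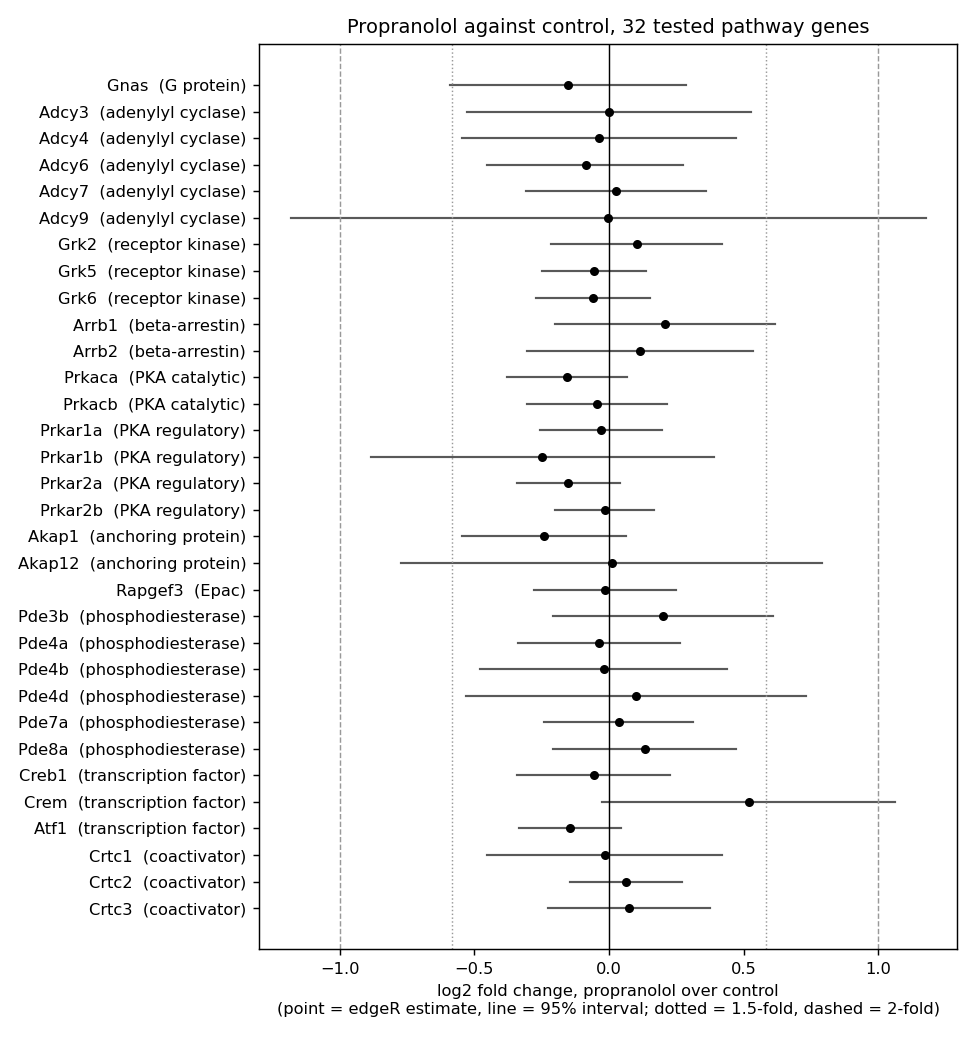
Log2 fold change of 32 pathway genes, propranolol over control, on the horizontal axis, with 1 row per gene; points are edgeR estimates from 4 tumours per group, lines are 95% intervals, dotted lines mark 1.5-fold and dashed lines 2-fold. Every interval includes 0, and that of Crem reaches farthest above it relative to its lower end, from -0.026 to 1.06.

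Levels differed far more between pathway genes than between groups. On the FPKM scale, which is per length and allows genes to be compared, the mean over 8 tumours ran from 0.270 for Pkia to 79.7 for Prkar1a. The median over the 33 genes was 6.55 FPKM, beside 6.43 FPKM over all genes of the table. In all, 15 of the 33 genes were at or above 10 FPKM and 3 were below 1 FPKM, namely Pkia, Adcy9 and Pde4d. The plot of levels gives every tumour.

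**Figure D2:**
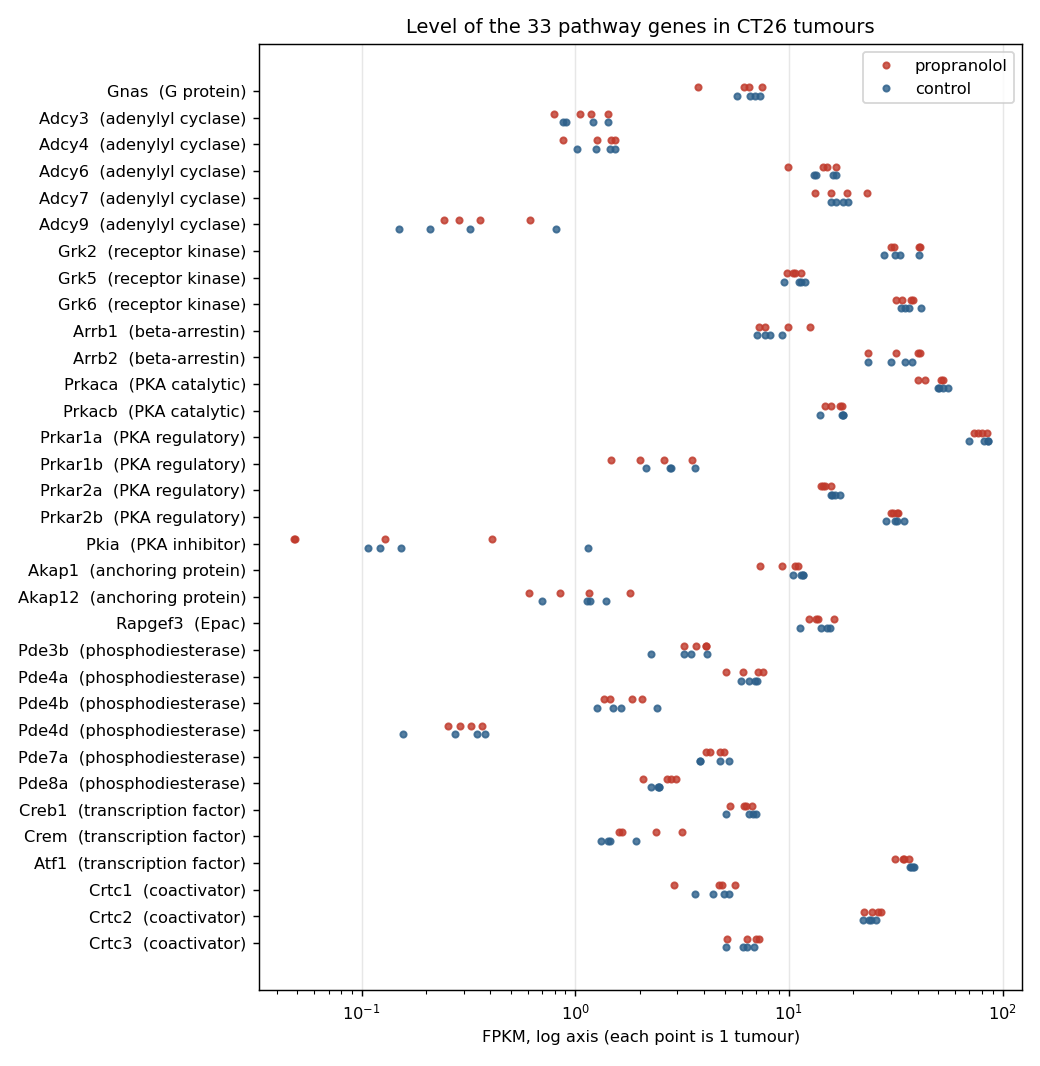
FPKM of the 33 pathway genes on a log axis, with 1 row per gene labelled by role and 1 point per tumour, propranolol above control. Prkar1a, Prkaca, Grk6, Atf1 and Grk2 lie farthest to the right, and Pkia, Pde4d and Adcy9 farthest to the left, with the groups overlapping in every row except those of Atf1 and Prkar2a.

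At the top of the pathway, the table holds few genes of the receptors and of their ligands. Of 17 genes for alpha-adrenergic receptors and for making, carrying or degrading catecholamines, 7 have a row, and all 7 were tested. Th and Dbh, which encode the enzymes that make noradrenaline's precursors and noradrenaline itself, and Slc6a2, which encodes the noradrenaline transporter, have no row. The alpha receptor genes with a row are Adra2b, Adra2a and Adra1d, at mean levels of 1.56, 0.480 and 0.520 FPKM. Adra1d averaged 0.725 ± 0.246 CPM in propranolol tumours and 1.26 ± 0.641 CPM in control tumours (SD, n = 4 each), a log2 fold change of -0.79 (SE 0.46, edgeR unadjusted p = 0.114, adjusted p = 0.999).

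Among the genes that clear catecholamines, Maoa (monoamine oxidase A) averaged 48.1 ± 6.29 CPM in propranolol tumours and 52.1 ± 3.17 CPM in control tumours (SD, n = 4 each), a log2 fold change of -0.11. Maob, which encodes monoamine oxidase B, had 7.17, 4.38, 1.17 and 6.50 CPM in propranolol tumours 1 to 4, against 3.18, 2.104, 1.77 and 2.30 CPM in control tumours 1 to 4. Propranolol tumours 1, 2 and 4 lay above every control tumour and propranolol tumour 3 below every one. Its log2 fold change was 1.04 (SE 0.48, edgeR unadjusted p = 0.0548, adjusted p = 0.999). With DESeq2, Maob passed at an unadjusted p under 0.05, and with limma-voom it did not. Neither of these fits had any gene at an adjusted p under 0.05. Propranolol tumours 1 and 4 also held the highest T cell marker sums and propranolol tumour 3 the lowest, and for all 10 of those markers the fitted level was higher with propranolol. Relations with the T cell sum were computed for Maob, and for Adora2a, Ptger2 and Gem below, after their values were seen. None had an adjusted p under 0.05. At an unadjusted p under 0.05, 11.8% of all genes rose with the T cell sum. For Maob over the 8 tumours, Pearson r on the log2 scale was 0.961 (exact permutation p = 9.92e-05, adjusted p = 0.0528). The Spearman correlation was 0.952 (exact permutation p = 0.00114), and r was 0.934 without 2 tumours. Within groups, r was 0.983 among propranolol tumours and 0.891 among control tumours. With tumour number as a replicate block, a pairing that no label states, Maob had a log2 fold change of 0.86 (SE 0.34, edgeR unadjusted p = 0.0332, adjusted p = 0.929). Slc18a2, the vesicular monoamine transporter, averaged 6.68 ± 1.03 CPM in propranolol tumours and 7.59 ± 1.73 CPM in control tumours (SD, n = 4 each).

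Other receptors that couple to the same G protein were looked for as well. Of 25 such genes 12 have a row and were tested, with 0 past the threshold at either p, and their median log2 fold change was 0.15. The smallest p values belonged to Adora2a, an adenosine receptor gene, and Ptger2, the prostaglandin EP2 receptor. Adora2a had 5.36, 2.37, 1.54 and 4.01 CPM in propranolol tumours, against 2.23, 1.71, 1.36 and 2.19 CPM in control tumours, a log2 fold change of 0.83 (SE 0.39, edgeR unadjusted p = 0.0611, adjusted p = 0.999). Ptger2 had 3.11, 1.18, 1.23 and 4.86 CPM in propranolol tumours, against 1.72, 1.02, 0.884 and 1.495 CPM in control tumours, a log2 fold change of 1.02 (SE 0.49, edgeR unadjusted p = 0.0654, adjusted p = 0.999). Both genes were highest in propranolol tumours 1 and 4, the tumours with T cell marker sums of 156 and 198 CPM. Over the 8 tumours the correlation with that sum was 0.916 for Adora2a (exact permutation p = 0.00171, adjusted p = 0.0753; Spearman correlation = 0.929, exact p = 0.00223; r = 0.980 without 2 tumours) and 0.852 for Ptger2 (exact permutation p = 0.0065, adjusted p = 0.113; Spearman correlation = 0.810, exact p = 0.0218; r = 0.951 without 2 tumours). Without propranolol tumour 4 the log2 fold change of Ptger2 was 0.53, and without propranolol tumour 1 that of Adora2a was 0.50. Under the replicate block, the log2 fold change of Adora2a was 0.725 (SE 0.29, edgeR unadjusted p = 0.0312, adjusted p = 0.929) and that of Ptger2 0.855 (SE 0.34, edgeR unadjusted p = 0.0329, adjusted p = 0.929).

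Gnas, which encodes the alpha subunit of the stimulatory G protein (chromosome 2, 174126113 to 174188537, GRCm39), had 68.0, 73.6, 87.8 and 43.0 CPM in propranolol tumours, against 63.9, 74.1, 82.0 and 82.6 CPM in control tumours. Propranolol tumour 4 was the lowest of the 8 tumours and propranolol tumour 3 the highest, so the groups overlapped. Its log2 fold change was -0.15 (SE 0.19), and the value is uncertain because antisense genes share exonic bases with it, Gm20721 over 13.1% and Nespas over 8.83% of them in GENCODE M21, while the sources used here do not say whether counting used strand.

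Of the 5 adenylyl cyclase genes, Adcy7 and Adcy6 made up most of the summed level. Adcy7 took 51.3% ± 4.42 of the family's summed FPKM in propranolol tumours and 49.7% ± 2.62 in control tumours (SD, n = 4 each), a difference of 1.64 percentage points (exact two-sided permutation test, p = 0.543, adjusted p = 0.943 over 7 family shares). Adcy6 took 40.7% ± 4.83 in propranolol tumours and 42.4% ± 2.40 in control tumours (SD, n = 4 each). Adcy4, Adcy3 and Adcy9 together made up the rest, each below 5% in every tumour.

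Scaled to library size, Adcy7 had 153, 125, 110.1 and 90.1 CPM in propranolol tumours, against 105, 127, 116 and 120.5 CPM in control tumours. Propranolol tumours spanned both the highest and the lowest value, and the log2 fold change was 0.027 with a 95% interval of -0.31 to 0.36. Adcy6 had 99.3, 97.2, 116 and 67.6 CPM in propranolol tumours, against 87.8, 112, 113 and 90.8 CPM in control tumours, with an interval of -0.45 to 0.28. Adcy4 had a log2 fold change of -0.037 (SE 0.23). Adcy9 rested on 21 to 55 counts in propranolol tumours and 12 to 74 counts in control tumours, the fewest of the tested cyclases, and its interval is the widest of the pathway. Adcy3 had 4.98 to 8.64 CPM in propranolol tumours and 5.46 to 8.87 CPM in control tumours. These values are uncertain in either direction, because it shares 22.1% of its exonic bases with Cenpo on the opposite strand in GENCODE M21.

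The genes that desensitise the receptor were expressed at moderate to high levels in all tumours. Grk2 and Grk6, G protein-coupled receptor kinases, averaged 34.4 and 36.0 FPKM over 8 tumours and Grk5 10.8 FPKM. Grk2 had 177, 137.5, 139 and 185 CPM in propranolol tumours, against 146, 139, 129 and 181 CPM in control tumours, a log2 fold change of 0.10 (SE 0.14). In both groups tumour 4 was the highest. Grk5 and Grk6 were measured most narrowly of these genes, with 95% intervals of the log2 fold change from -0.25 to 0.14 and from -0.27 to 0.15.

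Arrb2, which encodes beta-arrestin 2, had 111, 88.9, 69.3 and 118 CPM in propranolol tumours, against 97.6, 84.8, 68.7 and 107 CPM in control tumours. Tumour 3 was the lowest and tumour 4 the highest in each group, so the spread within a group exceeded the difference between groups, a log2 fold change of 0.11 (SE 0.19). Arrb1, beta-arrestin 1, had 107, 80.1, 144.5 and 87.0 CPM in propranolol tumours, against 85.6, 90.7, 107 and 79.2 CPM in control tumours, a log2 fold change of 0.21 (SE 0.18, edgeR adjusted p = 0.999). Propranolol tumour 3 held the highest Arrb1 and, within its group, the lowest Arrb2. Per length, Arrb2 took 80.3%, 81.3%, 65.3% and 84.2% of the arrestin sum in propranolol tumours, against 81.7%, 78.6%, 71.6% and 84.1% in control tumours (difference of means -1.24 percentage points, exact permutation p = 0.771, adjusted p = 0.943).

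PKA was the most abundant part of the pathway. Prkar1a, the type I alpha regulatory subunit that holds the catalytic subunits inactive, had 310.3, 343, 344 and 368 CPM in propranolol tumours, against 363, 366.5, 366 and 298 CPM in control tumours. Control tumour 4 was the lowest and propranolol tumour 4 the highest of the 8. The log2 fold change was -0.030 with a 95% interval of -0.26 to 0.20. Of the regulatory subunits' summed FPKM, Prkar1a took 61.9% ± 1.24 in propranolol tumours and 61.2% ± 2.46 in control tumours (SD, n = 4 each; exact permutation p = 0.743, adjusted p = 0.943), Prkar2b 24.6% and 24.1%, Prkar2a 11.6% and 12.5%, and Prkar1b 1.88% and 2.18%.

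Prkar2a, a type II regulatory subunit, had 92.0, 91.0, 104 and 90.9 CPM in propranolol tumours, against 99.4, 101, 114 and 104.5 CPM in control tumours. Propranolol tumours 1, 2 and 4 lay below every control tumour, and on the FPKM scale all 4 did, at 14.1 to 15.75 FPKM with propranolol and 15.8 to 17.4 FPKM in control tumours. The log2 fold change was -0.15 (SE 0.086, edgeR unadjusted p = 0.11, adjusted p = 0.999). Prkar2b was the most even of the subunits, with a 95% interval of -0.20 to 0.17. Prkar1b, the least abundant of them, had 7.45, 5.56, 13.9 and 9.96 CPM in propranolol tumours, against 8.08, 10.5, 14.4 and 10.7 CPM in control tumours, and its value is uncertain because Gm15672 overlaps 8.95% of its exonic bases on the same strand.

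Prkaca, the main catalytic subunit (chromosome 8, 84699622 to 84723072, GRCm39), had 128, 127, 112 and 101 CPM in propranolol tumours, against 123, 130.2, 130.3 and 137.5 CPM in control tumours. Propranolol tumours 3 and 4 lay below every control tumour, and tumours 1 and 2 within the control range. Its log2 fold change was -0.16 with a 95% interval of -0.38 to 0.067 (edgeR unadjusted p = 0.149, adjusted p = 0.999). Prkacb, the beta catalytic subunit, had 130 to 161 CPM in propranolol tumours and 121 to 161 CPM in control tumours. Per length, Prkaca took 74.0% ± 2.57 of the catalytic sum in propranolol tumours and 75.5% ± 2.997 in control tumours (SD, n = 4 each; exact permutation p = 0.486, adjusted p = 0.943).

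Pkia encodes an inhibitor peptide that binds free catalytic subunits and is known from skeletal muscle and brain. It was the least abundant pathway gene, with 26, 8, 3 and 3 counts in propranolol tumours 1 to 4 and 7, 10, 7 and 74 counts in control tumours 1 to 4. These are 1.47, 0.473, 0.185 and 0.182 CPM in propranolol tumours, against 0.445, 0.569, 0.413 and 4.26 CPM in control tumours. The highest values were those of control tumour 4 and propranolol tumour 1, the tumours with the highest skeletal muscle marker sums, 751 and 64.5 CPM, while the other 6 tumours had sums of 1.42 to 19.6 CPM. The part of muscle tissue in these values was not tested. With no filter on low counts, edgeR gave a log2 fold change of -1.28 (SE 0.97, adjusted p = 0.999), and the authors' deposited table lists -1.29 with a p-value of 1.

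Akap1 and Akap12 encode anchoring proteins that tether PKA, at mitochondria and at the cell cortex. Akap1 had 39.7, 46.2, 50.1 and 32.3 CPM in propranolol tumours, against 45.5, 51.0, 51.9 and 50.7 CPM in control tumours. Propranolol tumours 1 and 4 lay below every control tumour, and the log2 fold change was -0.24 (SE 0.14, edgeR unadjusted p = 0.106, adjusted p = 0.999). Akap12 varied more between tumours of a group than between groups, with 5.53, 7.69, 12.6 and 4.13 CPM in propranolol tumours and 7.51, 7.85, 9.67 and 4.66 CPM in control tumours. In both groups tumour 3 was the highest and tumour 4 the lowest. Rapgef3, which encodes Epac1, the PKA-independent cAMP sensor, averaged 88.1 ± 8.57 CPM in propranolol tumours and 89.0 ± 11.96 CPM in control tumours (SD, n = 4 each).

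Of 52 further genes of the pathway, 34 have a row and 33 were tested, with 0 past the threshold. At an unadjusted p under 0.05, 4 were higher in propranolol tumours and 0 lower (12.1% and 0% of the 33), where 1.24% and 0.714% of all genes tested did, and the list's median log2 fold change was 0.058. With DESeq2 the count was 2 higher and 0 lower, Akap13 and Akap8l. Under the replicate block it was 4 and 0, with Gng2 and Grk3 in place of Akap7 and Pde8b. When 1 tumour was left out it was 1 to 3 higher and 0 to 1 lower, and Akap13 was the only gene counted in every fit. Over all genes, higher and lower together, the count was 273 in the edgeR fit and 337 with DESeq2. It was 717 with the replicate block and 134 to 1017 when 1 tumour was left out. The 4 of the edgeR fit are the anchoring protein genes Akap13, Akap8l and Akap7 and the phosphodiesterase gene Pde8b. Akap13, a large anchoring protein gene, had 144, 112, 105 and 116.5 CPM in propranolol tumours, against 93.1, 99.6, 87.5 and 96.8 CPM in control tumours. Its groups did not overlap, as for 0.714% of all genes tested in that direction, and its log2 fold change was 0.34 (SE 0.11, edgeR unadjusted p = 0.0119, adjusted p = 0.999). The log2 fold change was 0.22 for Akap8l, a nuclear anchoring protein gene, and 0.29 for Akap7, each with 3 of 4 propranolol tumours above every control tumour. Pde8b had 1.81, 1.54, 1.66 and 2.31 CPM in propranolol tumours, against 1.59, 0.967, 1.12 and 0.748 CPM in control tumours, a log2 fold change of 0.73 (SE 0.32).

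The phosphodiesterase genes were mostly low. Pde4a led the cAMP-specific PDE4 genes, with 76.1% ± 6.15 of their summed FPKM in propranolol tumours and 76.9% ± 6.03 in control tumours (SD, n = 4 each), ahead of Pde4b, at 20.2% ± 5.33 and 19.7% ± 5.57 (SD, n = 4 each; exact permutation p = 0.943 for Pde4b, adjusted p = 0.943), and Pde4d, at 3.70% and 3.33%. Pde4b, which is itself known to be induced by cAMP, had 21.1, 15.3, 14.9 and 19.7 CPM in propranolol tumours, against 25.1, 15.8, 17.9 and 13.3 CPM in control tumours. Control tumours held both the highest and the lowest value, and the log2 fold change was -0.020 with a 95% interval of -0.48 to 0.44. For Pde4a the interval was -0.34 to 0.26 and for Pde4d, with 51 to 76 counts in propranolol tumours and 33 to 73 counts in control tumours, it was -0.53 to 0.73.

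Pde3b, the insulin-regulated phosphodiesterase, had 32.5, 29.2, 38.7 and 37.6 CPM in propranolol tumours, against 28.9, 31.7, 38.8 and 20.5 CPM in control tumours, with a 95% interval of the log2 fold change from -0.21 to 0.61. Control tumour 4 was the lowest. Pde7a and Pde8a encode cAMP-specific enzymes of high affinity. Pde7a had a log2 fold change of 0.037 and Pde8a of 0.13, and Pde8a was above every control tumour in 3 of 4 propranolol tumours and below every one in propranolol tumour 2.

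In the nucleus, Crem stood farthest from equality. Crem encodes the cAMP response element modulator, and one of its promoters is known to yield ICER, a repressor that cAMP induces. It had 13.7, 9.34, 10.04 and 18.8 CPM in propranolol tumours 1 to 4, against 8.46, 8.30, 11.7 and 7.71 CPM in control tumours 1 to 4. Propranolol tumours 1 and 4 lay above every control tumour, and the other 2 within the control range. The log2 fold change was 0.52 (SE 0.24, 95% interval -0.026 to 1.06, edgeR unadjusted p = 0.0596, adjusted p = 0.999), and without propranolol tumour 4 it was 0.29 (SE 0.21). Both tumours high in Crem had high T cell marker sums, 156 and 198 CPM, but over the 8 tumours Crem and that sum were not related past the threshold (log2 scale, Pearson r = 0.558, exact permutation p = 0.15, adjusted p = 0.413; Spearman correlation = 0.381, exact p = 0.36; r = 0.363 without the 2 tumours farthest from the median sum). Among the 4 control tumours alone the sign was opposite, at r = -0.826, and among the 4 propranolol tumours r was 0.761. The table counts the gene as a whole, so ICER cannot be told apart from the other transcripts, and 8.01% of the exonic bases are shared with Gm6225 on the opposite strand.

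Atf1, a CREB-family activator and the most abundant of the 3 factors, had 93.6, 104.5, 108 and 112.2 CPM in propranolol tumours, against 112.2, 112.5, 122 and 116 CPM in control tumours. Every propranolol tumour lay below every control tumour, though propranolol tumour 4 and control tumour 1 were nearly equal. Atf1 was the only 1 of the 32 pathway genes (3.12%) whose groups did not overlap in that direction, where 0.914% of all genes tested did; in the other direction the pathway had 0, against 0.714%. Its log2 fold change was -0.14 (SE 0.085, edgeR unadjusted p = 0.122, adjusted p = 0.999). Creb1 had 82.3, 71.7, 95.3 and 86.8 CPM in propranolol tumours, against 94.6, 89.4, 96.3 and 69.2 CPM in control tumours, a log2 fold change of -0.056 (SE 0.13).

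Of the CRTC coactivators, which move to the nucleus on cAMP signals and bind CREB, Crtc2 took 69.7% ± 3.82 of the family's FPKM in propranolol tumours and 69.3% ± 2.12 in control tumours (SD, n = 4 each; exact permutation p = 0.857, adjusted p = 0.943). Crtc2 had a log2 fold change of 0.065 with a 95% interval of -0.14 to 0.27. Crtc1 was lowest in tumour 4 of each group, at 32.6 CPM in propranolol tumour 4 and 40.3 CPM in control tumour 4, and lay between 48.7 and 61.0 CPM in the other 6. Crtc3 had a log2 fold change of 0.076 with a 95% interval of -0.22 to 0.38.

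**Figure D3:**
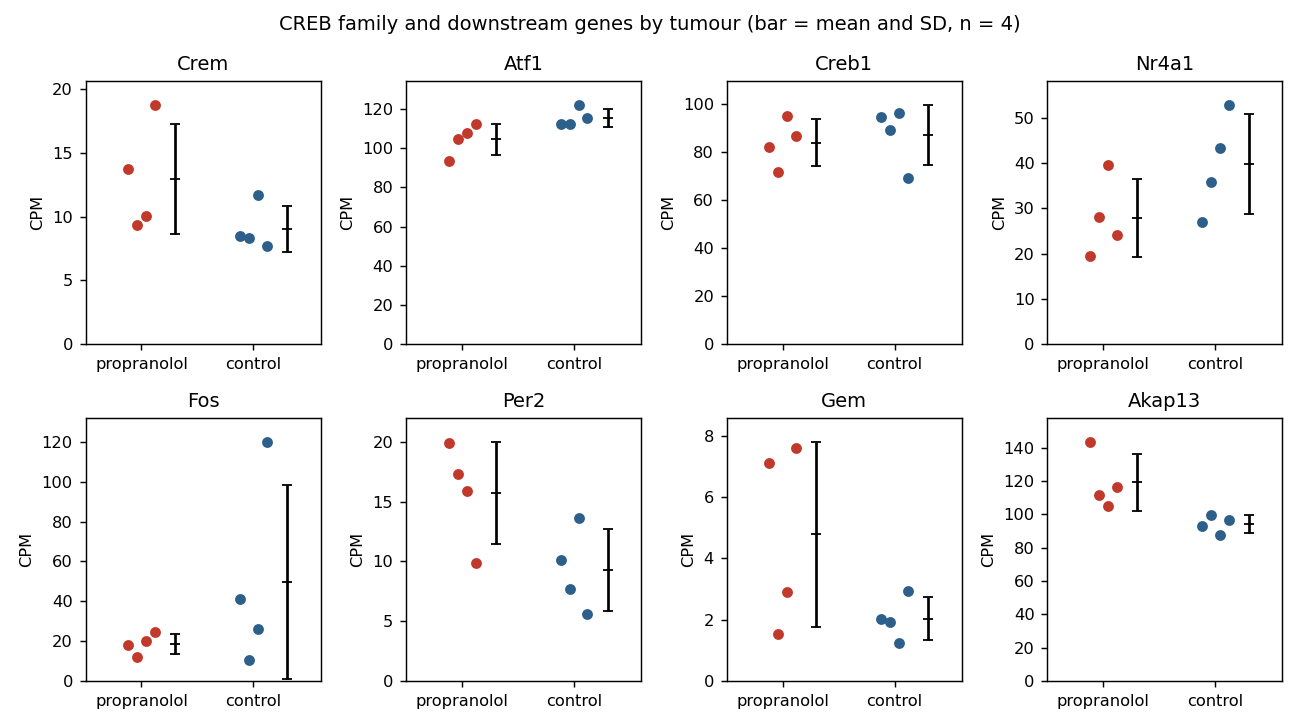
CPM by tumour for 3 CREB-family genes, 4 genes listed as CREB-induced and Akap13, with propranolol left of control, tumours 1 to 4 from left to right within a group, and the mean and SD (n = 4) as a bar. Atf1 and Akap13 are the genes shown without overlap between groups, and the control SD of Fos rests on control tumour 4 at 120.1 CPM.

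Genes that CREB is known to induce, many of which other signals induce as well, did not move one way. Of 25 listed, 23 were tested and 0 passed the threshold. In propranolol tumours 11 had a higher and 12 a lower fitted level, with a median log2 fold change of -0.011. They were measured less closely than the pathway genes. The 95% interval lay within 1.5-fold for 5 of the 23 (21.7%) and within 2-fold for 8 (34.8%). Over all genes tested these shares were 61.3% and 80.1%, so for most of the list a 2-fold difference is not bounded. At an unadjusted p under 0.05, 2 were higher and 0 lower (8.7% and 0% of 23, against 1.24% and 0.714% of all genes tested). That split depended on the fit: DESeq2 gave 2 higher and 2 lower, with Fos and Nr4a1 as the lower pair, limma-voom 1 and 0, the replicate block 5 and 2, and leaving out 1 tumour 0 to 3 and 0 to 2. Over all genes, higher and lower together, that count was 273 in the edgeR fit, 337 with DESeq2 and 249 with limma-voom. It was 717 with the replicate block and 134 to 1017 when 1 tumour was left out. Per2, a circadian repressor gene, had 19.9, 17.3, 15.9 and 9.84 CPM in propranolol tumours, against 10.1, 7.74, 13.6 and 5.58 CPM in control tumours. Its log2 fold change was 0.77 (SE 0.29, edgeR unadjusted p = 0.0271, adjusted p = 0.999), with 3 of 4 propranolol tumours above every control tumour. Gem, a small GTP-binding protein gene, had 7.11, 1.54, 2.89 and 7.59 CPM in propranolol tumours, against 2.04, 1.93, 1.24 and 2.93 CPM in control tumours, a log2 fold change of 1.23 (SE 0.50, edgeR unadjusted p = 0.0343, adjusted p = 0.999). Its 2 high values are again those of propranolol tumours 1 and 4, and its correlation with the T cell sum was 0.707 (exact permutation p = 0.0474, adjusted p = 0.244; Spearman correlation = 0.595, exact p = 0.132; r = 0.875 without 2 tumours).

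Nr4a1, Fos, Dusp1 and Sik1 are described because they are familiar readouts of cAMP, and were chosen after their values were seen. Nr4a1, an orphan nuclear receptor gene, had 19.5, 27.97, 39.6 and 24.0 CPM in propranolol tumours, against 27.0, 35.7, 43.3 and 52.8 CPM in control tumours, and a log2 fold change of -0.52 (standard error 0.25, edgeR unadjusted p = 0.0723, adjusted p = 0.999). Propranolol tumours 1 and 4 lay below every control tumour. Nr4a1 was lower in the propranolol tumour of all 4 same-numbered pairs, a pairing that no label states. Its replicate block log2 fold change was -0.52 (SE 0.16, edgeR unadjusted p = 0.0103, adjusted p = 0.929). Fos, an AP-1 subunit gene, had 17.8, 12.2, 19.9 and 24.5 CPM in propranolol tumours, against 41.0, 10.7, 26.0 and 120.1 CPM in control tumours, a log2 fold change of -1.41 (SE 0.68, edgeR unadjusted p = 0.0738, adjusted p = 0.999) that shrank to -0.48 without control tumour 4, the tumour with muscle transcripts. Sik1, a kinase gene that feeds back on the CRTC coactivators, had 62.9, 32.2, 70.8 and 43.7 CPM in propranolol tumours, against 43.6, 30.5, 41.1 and 36.4 CPM in control tumours, a log2 fold change of 0.47 (SE 0.24) that was 0.29 without propranolol tumour 3. Sik1 was higher in the propranolol tumour of all 4 pairs, with a block value of 0.42 (SE 0.13, edgeR unadjusted p = 0.00968, adjusted p = 0.929). Dusp1, a phosphatase gene, averaged 56.7 ± 30.7 CPM in propranolol tumours and 57.7 ± 23.8 CPM in control tumours (SD, n = 4 each).

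The promoters of a few of these genes show the element through which the factors act. Promoter windows of 300 bases, from 250 before to 50 after a start site, were taken from RefSeq on GRCm38.p6 and searched on both strands for the CRE, TGACGTCA, and for its core, TGACG, which a full CRE holds on both strands. Of the 35 pathway genes, 24 matched a window by symbol, with 52 windows, of which 2 (3.85%) hold a full CRE, both in Prkar1a, and 18 (34.6%) the core. Among all 32851 windows the shares are 1.79% and 20.8%, and among windows of genes with an expression row they are 2.91% and 29.8%. Of the CREB-induced list 20 genes matched, with 31 windows, of which 6.45% hold a full CRE and 58.1% the core. Below are Prkar1a, the only pathway gene matched with a full CRE, and 3 of the induced genes, each 5′ to 3′ on the gene's strand with the core in capitals on either strand (as TGACG or CGTCA).
Prkar1a (chr11:109650612-109650911, plus strand): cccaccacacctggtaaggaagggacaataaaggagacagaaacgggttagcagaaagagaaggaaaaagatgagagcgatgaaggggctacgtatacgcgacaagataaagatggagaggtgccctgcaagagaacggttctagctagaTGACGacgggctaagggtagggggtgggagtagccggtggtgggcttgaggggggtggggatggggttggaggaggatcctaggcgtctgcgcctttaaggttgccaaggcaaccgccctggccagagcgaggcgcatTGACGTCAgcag
Nr4a1 (chr15:101266596-101266895, plus strand): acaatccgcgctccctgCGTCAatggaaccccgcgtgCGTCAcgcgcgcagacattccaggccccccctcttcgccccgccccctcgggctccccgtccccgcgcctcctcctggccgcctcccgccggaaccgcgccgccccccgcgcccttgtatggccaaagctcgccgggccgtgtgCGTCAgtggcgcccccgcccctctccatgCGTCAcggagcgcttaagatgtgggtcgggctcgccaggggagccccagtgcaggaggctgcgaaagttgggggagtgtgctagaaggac
Fos (chr12:85473640-85473939, plus strand): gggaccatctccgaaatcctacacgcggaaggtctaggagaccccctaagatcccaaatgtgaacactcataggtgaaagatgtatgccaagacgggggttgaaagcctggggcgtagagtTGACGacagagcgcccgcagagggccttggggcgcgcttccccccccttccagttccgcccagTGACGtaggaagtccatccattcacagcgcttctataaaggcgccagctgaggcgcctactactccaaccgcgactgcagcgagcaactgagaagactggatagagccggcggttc
Dusp1 (chr17:26508423-26508722, minus strand): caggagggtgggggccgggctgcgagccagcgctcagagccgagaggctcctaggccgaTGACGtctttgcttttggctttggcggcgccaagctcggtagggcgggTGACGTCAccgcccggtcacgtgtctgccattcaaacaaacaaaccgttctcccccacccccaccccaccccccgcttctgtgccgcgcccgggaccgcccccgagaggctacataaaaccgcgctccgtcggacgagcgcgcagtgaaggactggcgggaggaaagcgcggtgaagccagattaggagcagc

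The full CRE of Prkar1a starts 38 bases after the start site of this window and that of Dusp1 143 bases before its start site. Nr4a1 holds 4 cores and no full CRE, and Fos 2 cores, at -129 and -66. A match is a description of these letters and not of binding, and the levels above stand beside it without a test. The log2 fold changes were -0.030 for Prkar1a and -0.027 for Dusp1, each with a full CRE. With cores alone, Nr4a1 had -0.52, Fos -1.41 and Prkaca, which has a window with 2 cores, -0.16. Nr4a1, Fos and Dusp1 were chosen after their values were seen, and 17 genes of the CREB-induced list hold the core. No relation between motif and level can be read from the few genes given.

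Within the pathway, the lowest and highest values fell unevenly over the tumours of both groups. Of the 32 tested genes, 11 (34.4%) were lowest of the 8 tumours in propranolol tumour 4 and 11 (34.4%) in control tumour 4, where 20.6% and 17.2% of all genes tested were. In propranolol tumour 4 these include Gnas, Adcy3, Adcy4, Adcy6 and Adcy7, and in control tumour 4 Prkacb, Prkar1a, Creb1 and Crem. The highest value fell in tumour 3 of a group for 14 of the 32 genes, 7 (21.9%) in propranolol tumour 3 and 7 (21.9%) in control tumour 3, where 14.2% and 13.4% of all genes tested did. These tumours were picked from the tallies of all 8. Outside tumour 4 of each group, a tumour was lowest for 0 to 4 of the genes. Outside tumour 3 of each group, a tumour was highest for 1 to 4 of them.

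**Figure D4:**
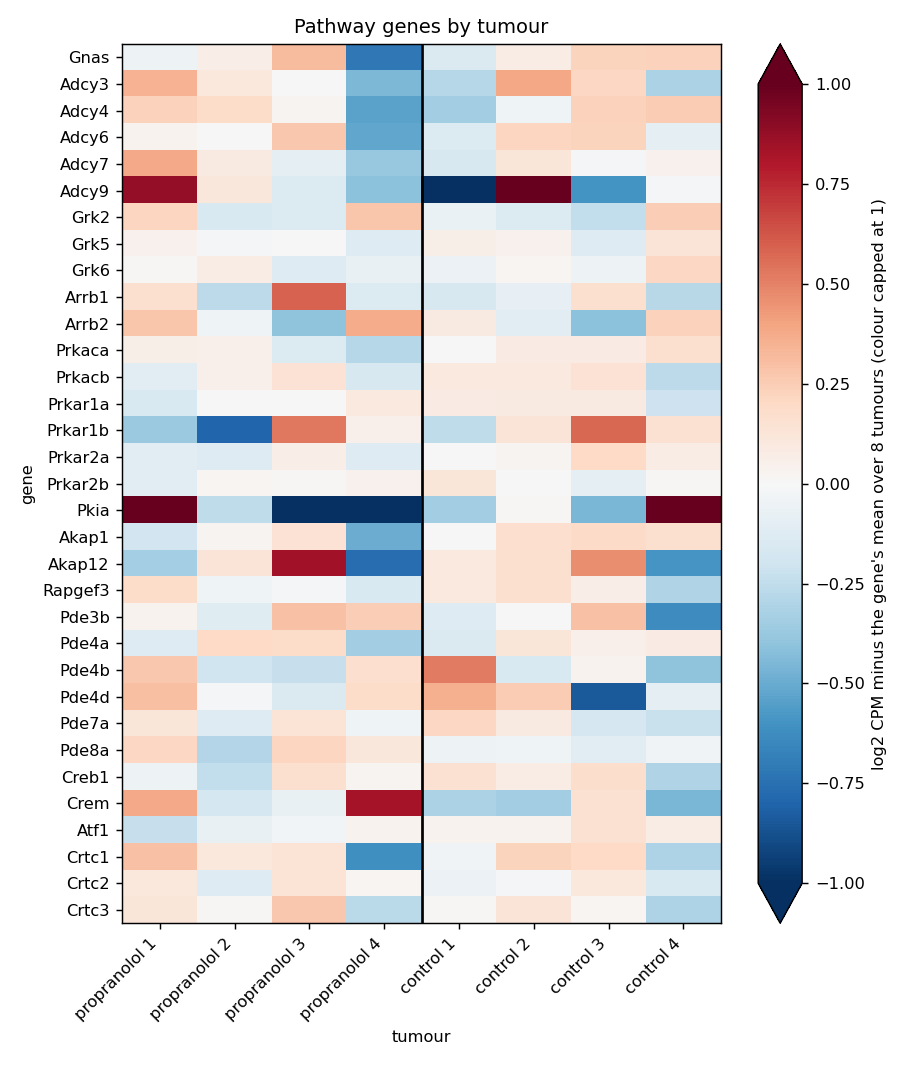
Level (log2 CPM) of the 33 pathway genes in each tumour, relative to that gene's average across all 8, as colour (red higher, blue lower, capped at 1), with propranolol tumours left of the black line and control tumours right of it. Pkia is highest in control tumour 4, at 4.26 CPM, and Gnas lowest in propranolol tumour 4, at 43.0 CPM, while no block of genes separates the groups.

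The levels were also set beside markers of the cells a tumour holds, a comparison added after the data were seen. For 32 genes and 4 marker lists (T cell, macrophage, endothelial, tumour epithelium), 128 relations were computed over the 8 tumours between log2(CPM + 0.5) and the log2 marker sum, with two-sided exact permutation p-values adjusted over all tested genes and the 4 lists together. None of the 128 had an adjusted p under 0.05, against 0.386% of all genes for T cell markers, 0.0714% for macrophage, 0.0786% for endothelial and 0.0429% for tumour epithelium markers. At an unadjusted p under 0.05, 2 pathway genes went up and 6 down with the T cell markers, where 11.8% and 10.3% of all genes did. With the macrophage markers these were 2 and 3, where 10.4% and 7.85% did, with the endothelial markers 5 and 1, where 9.01% and 6.84% did, and with the tumour epithelium markers 5 and 2, where 12.2% and 11.4% did. The genes below had the smallest p-values and were chosen after they were seen.

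Arrb2 went with the T cell markers (Pearson r = 0.925, exact permutation p = 0.00151, adjusted p = 0.0734; Spearman correlation = 0.905, exact p = 0.00456; r = 0.858 without the 2 tumours farthest from the median sum) and against the tumour epithelium markers (r = -0.942, exact permutation p = 0.00117, adjusted p = 0.0665; Spearman correlation = -0.833, exact p = 0.0154; r = -0.807 without 2 tumours). Akap12 went with the tumour epithelium markers (r = 0.927, exact permutation p = 0.00129, adjusted p = 0.0693; Spearman correlation = 0.929, exact p = 0.00223; r = 0.828 without 2 tumours). That sum is mostly Krt20: with Krt20 left out of it, r was -0.675 for Arrb2 and 0.551 for Akap12. For Arrb2, r was -0.823 with Krt20 alone, -0.893 with Krt18, -0.617 with Cdh1 and -0.154 with Krt8. For Akap12, the values in the same order were 0.855, 0.770, 0.657 and 0.112. The relations are over both groups together, and tumour 3 of each group has its group's lowest T cell sum and highest tumour epithelium sum (185 CPM in propranolol tumour 3 and 166 CPM in control tumour 3), so the marker lists cannot be told apart here. The plot of Arrb2 and Pkia shows each tumour.

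**Figure D5:**
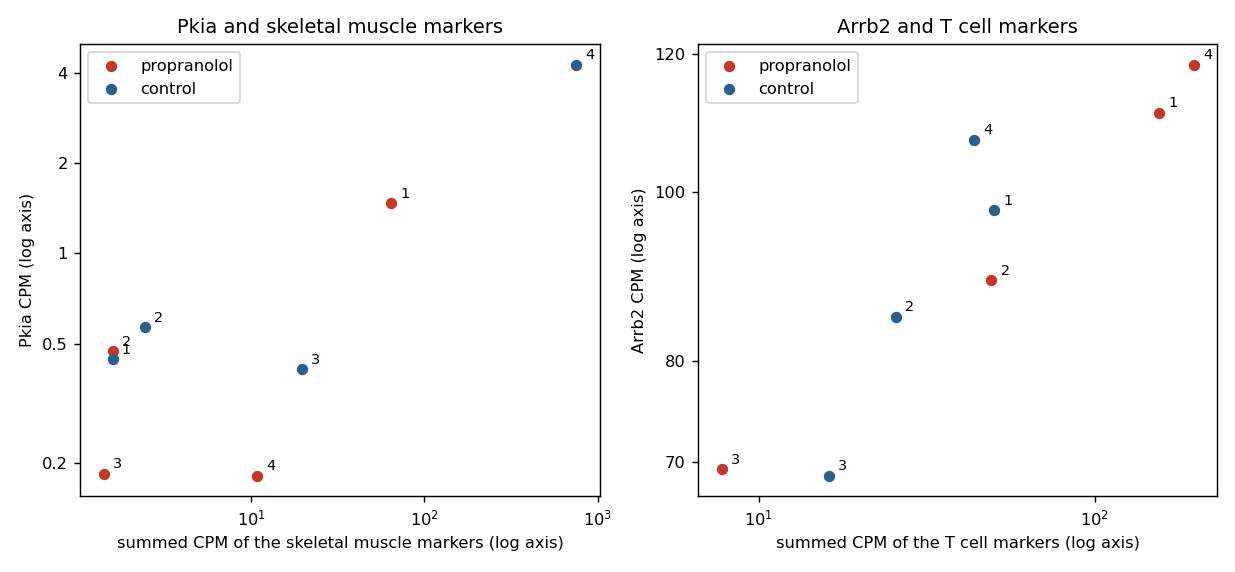
CPM of Pkia against the summed CPM of 6 skeletal muscle markers (left) and of Arrb2 against the summed CPM of 10 T cell markers (right), both axes log, 1 point per tumour with its number, propranolol in red and control in blue. Control tumour 4 lies at the top right for Pkia, at 751 and 4.26 CPM, and in each group the tumour with the lowest T cell sum, tumour 3, has the lowest Arrb2.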

How the data were processed

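RNA from 8 tumours was sequenced, 4 from propranolol-treated and 4 from control mice. Tools listed in the submitters' processing notes are HISAT2 2.1.0, fastp 0.19.3, StringTie 1.3.4d, featureCounts 1.6.2, edgeR 3.24.3 and DESeq2 1.22.1, with the build GRCm39. The authors deposited 1 table, which per the file headers holds raw counts and FPKM per gene and tumour. The authors' deposited table also gives a log2 fold change and p-values for their own comparison, quoted only where named. The labels' design text speaks of duplicates, while the titles number 4 tumours per group.

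Deposited counts were normalised by TMM, filtered with filterByExpr (14006 of 14133 genes kept) and tested with edgeR 4.0.16 (R 4.3.3; robust quasi-likelihood F test, Benjamini-Hochberg adjustment over all genes tested). CPM uses the TMM library sizes. Family shares were tested by exact permutation over tumours, where the smallest possible p is 0.0286. Alternatives were RLE, no filter, DESeq2 1.42.0, limma-voom (limma 3.58.1), a replicate block and leaving out each tumour. Deviations of same-numbered tumours from their group means correlated at 0.19, 0.311, 0.508 and 0.277. No label states a pairing. Across numbers, propranolol tumour 1 and control tumour 4 correlated at 0.383, and propranolol tumour 4 and control tumour 1 at 0.315. The block by number was run only as an alternative. Its pairs follow the tumour numbers in the titles, and it is a further fit to these same values, so its p-values are no separate support for a difference. With the block, whose values stand in the text where a call at an unadjusted p changed, the unadjusted count of 273 genes became 717. The scripts were tested on simulated data. The members, the 4 gene lists and the 14 marker lists were chosen with earlier results of these data known. Named were all 35 members, every catecholamine-list gene with a row (1 of them is not reported here), and of other lists the genes at an unadjusted p under 0.05 or otherwise the 2 with the smallest p, with Nr4a1, Fos, Dusp1 and Sik1 added after their values were seen.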

Additional observations from a re-analysis of the deposited data

Results flagged for a closer look

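Of 116 sets of 4 values examined (1 gene or family share in 1 group), 5 held a tumour far from the other 3, where chance gives about 1 in 20, or 5.8 of 116. In control tumour 4, Prkar1a was far below the other controls at 298 CPM and Prkacb at 121 CPM, while Pkia was far above them at 4.25 CPM and the Prkaca share of the catalytic sum at 80%. The tumour with these 4 values is the one with a skeletal muscle marker sum of 751 CPM and an erythroid marker sum of 170.4 CPM, against 1.42 to 64.5 CPM and 22.7 to 77.8 CPM in the other 7, and their part in these values was not tested. Prkar2a was far above the other propranolol tumours in propranolol tumour 3, at 104 CPM.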

How the results depend on the processing

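RLE size factors, no filter on low counts, DESeq2, limma-voom, a fit with tumour number as a replicate block, and leaving out each tumour in turn left 0 pathway genes and 0 genes overall at an adjusted p under 0.05. The count of all genes at an unadjusted p under 0.05, 273 in the edgeR fit, was 717 with the replicate block and 134 to 1017 when 1 tumour was left out, with 134 without propranolol tumour 1, 459 without propranolol tumour 2 and 1017 without propranolol tumour 3; the cause was not tested. For the pathway that count, 0 in the edgeR fit, was 0 to 2 when 1 tumour was left out, with Crem without propranolol tumour 2, Crem and Akap1 without propranolol tumour 3, and Crem without control tumour 3. The block changed no call on a pathway gene. The sign of the log2 fold change was kept in all of these fits for 13 of 32 pathway genes, Grk2, Grk5, Arrb1, Arrb2, Prkaca, Prkar1b, Prkar2a, Pde3b, Pde8a, Akap1, Crem, Atf1 and Crtc2, and for 15 of 18 other named genes. Adcy9 turned to 0.003 with RLE and with DESeq2, 0.205 with limma-voom and 0.151 with the block. Pde4b turned to 0.014 with limma-voom, and Akap12 to -0.068 with limma-voom and -0.058 with the block. When 1 tumour was left out the sign changed for 19 pathway genes, with ranges of -0.12 to 0.14 for Adcy3, -0.14 to 0.10 for Adcy4, -0.20 to 0.045 for Adcy6, -0.11 to 0.14 for Adcy7, -0.33 to 0.71 for Adcy9, -0.36 to 0.21 for Akap12, -0.15 to 0.012 for Creb1, -0.12 to 0.14 for Crtc1, -0.007 to 0.17 for Crtc3, -0.30 to 0.015 for Gnas, -0.096 to 0.003 for Grk6, -0.11 to 0.060 for Pde4a, -0.14 to 0.19 for Pde4b, -0.089 to 0.25 for Pde4d, -0.028 to 0.12 for Pde7a, -0.13 to 0.004 for Prkacb, -0.098 to 0.014 for Prkar1a, -0.042 to 0.029 for Prkar2b and -0.11 to 0.036 for Rapgef3. It also changed for 3 others, with ranges of -0.43 to 0.17 for Adra2a, -0.086 to 0.076 for Adra2b and -0.33 to 0.23 for Dusp1. The difference in family share, propranolol minus control in percentage points, spanned -1.28 to 3.10 for Pde4b, -3.71 to 2.92 for Arrb2, -1.44 to 1.41 for Crtc2, -0.47 to 1.32 for Prkar1a and -0.32 to 1.05 for Creb1. Pkia, with 3 to 26 counts in propranolol tumours and 7 to 74 in control tumours, did not pass the filter on low counts. Adcy9 had the widest interval of the pathway, and its log2 fold change was 0.707 (SE 0.438) without control tumour 2.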
